A study of Mus musculus with 4 samples.

Results

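Trimethylation of lysine 4 of histone H3 (H3K4me3) inside gene bodies, away from the ends of genes, was described in mouse peritoneal macrophages exposed to lipopolysaccharide (LPS) or to the buffer control, phosphate-buffered saline (PBS). The regions were chosen by position alone. The H3K4me3 peaks of the LPS list and of the PBS list were merged where they overlapped or touched, on chromosomes 1 to 19 and X, and a region was kept where it lay wholly inside a RefSeq protein-coding gene and more than 5 kb from every end of a protein-coding gene. Of 36628 merged regions, 10150 met this rule and are called internal regions here. The regions they are set beside were 14250 regions within 1 kb of a gene end and 8774 regions outside protein-coding genes and more than 5 kb from their ends. The cells came from C57BL/6 mice aged 8 weeks, were drawn into the peritoneum with thioglycollate broth, made adherent in dishes and exposed to LPS or PBS for 24 h. Each of the 4 groups (H3K4me3 or trimethylated lysine 9, H3K9me3, in LPS or PBS) held 1 library of sheared chromatin. The labels give no genotype beyond the strain, no count of animals and no sex. With 1 library per group no difference between LPS and PBS has a replicate check, and a ratio sets 1 library beside another.

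H3K4me3 is written by SET and MLL methyltransferase complexes and peaks on the nucleosomes just after an active or poised transcription start. Clusters of unmethylated CpG dinucleotides attract it, because CXXC zinc finger proteins that carry or accompany these complexes bind unmethylated CpG. Most of the mark sits where genes begin. Inside a gene body it marks alternative promoters, which give shorter or differently spliced products, promoters of non-coding RNAs that overlap the gene, and, at lower levels, strong enhancers, whose more usual mark is monomethylation of the same lysine. In macrophages the enhancers inside genes are commonly bound by PU.1 and its partner transcription factors, and LPS acts on them through Toll-like receptor 4, NF-kB and interferon signalling.

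The peak caller kept 26748289 tags of the H3K4me3 LPS library and 29681491 of the PBS library, and 14.0% and 17.8% of them lay in listed peaks. All 10 macrophage markers tested, among them Csf1r, Spi1, Adgre1 and Cd14, had an H3K4me3 peak within 1 kb of a gene end in both lists, with 92.1 tags per 1e6 filtered tags over the marker list in LPS and 88.9 in PBS. Marker genes of other cells were marked too. Peaks stood at 4 (LPS) and 5 (PBS) of 10 T cell markers with 24.4 and 28.3 tags per 1e6, at 4 and 4 of 8 B cell markers with 13.8 and 19.6, at 3 and 2 of 8 neutrophil markers with 11.9 and 9.06, and at 1 and 1 of 8 eosinophil or mast cell markers with 7.51 and 7.95. Marked in both lists were Cd3d, Cd4, Bcl11b, Tcf7, Cd79a, Pax5, Ebf1, Cr2, Csf3r and Kit, while Cd3e, Ly6g and Siglecf had no peak in either. Mesothelial or fibroblast markers differed between the lists, at 4 of 10 in LPS and 8 of 10 in PBS with 22.0 and 31.4 tags per 1e6. Upk3b, Krt8, Krt19 and Col1a2 were listed in PBS only, and Msln and Pdgfra in neither. Their part in the internal regions listed in PBS only was not tested. In bulk chromatin, fewer cells of a type and less of the mark per cell cannot be told apart.

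Sequence at starts inside genes carries much of what follows, so 8 stretches are shown first. Each holds the 250 bases before a RefSeq start site (GRCm38.p6, the build mm10), 5′ to 3′ on the gene's own strand, with every CpG in capitals. Gnas, Ptch1 and Runx1 represent CpG-rich internal starts inside strong regions of both lists, Mitf a CpG-poor start outside every region, Cast and Ptges starts whose region had more tags in PBS or in LPS, and Csk and Arap1 starts whose region only the LPS list or only the PBS list held. They lie at chr2:174329756-174330005 (+) in Gnas, chr13:63565736-63565985 (-) in Ptch1, chr16:92697330-92697579 (-) in Runx1, chr6:97991533-97991782 (+) in Mitf, chr13:74770737-74770986 (-) in Cast, chr2:30903298-30903547 (-) in Ptges, chr9:57645654-57645903 (-) in Csk and chr7:101385276-101385525 (+) in Arap1.
Gnas: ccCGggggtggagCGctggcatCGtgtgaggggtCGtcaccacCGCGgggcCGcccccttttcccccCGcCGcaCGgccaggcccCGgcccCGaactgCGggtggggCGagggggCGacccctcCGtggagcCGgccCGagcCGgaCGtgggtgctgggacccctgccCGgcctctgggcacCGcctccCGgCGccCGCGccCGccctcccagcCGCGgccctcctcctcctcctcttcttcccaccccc
Ptch1: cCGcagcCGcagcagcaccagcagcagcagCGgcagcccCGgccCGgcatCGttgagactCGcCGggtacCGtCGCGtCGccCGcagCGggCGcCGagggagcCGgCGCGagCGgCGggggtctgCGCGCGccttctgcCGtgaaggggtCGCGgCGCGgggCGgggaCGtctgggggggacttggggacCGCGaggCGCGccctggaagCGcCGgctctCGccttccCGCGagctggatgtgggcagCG
Runx1: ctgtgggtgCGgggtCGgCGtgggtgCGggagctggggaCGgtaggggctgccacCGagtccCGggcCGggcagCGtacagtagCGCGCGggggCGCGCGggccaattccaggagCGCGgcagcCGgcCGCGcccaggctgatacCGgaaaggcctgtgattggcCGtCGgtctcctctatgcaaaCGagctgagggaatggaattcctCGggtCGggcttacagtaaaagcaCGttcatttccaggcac
Mitf: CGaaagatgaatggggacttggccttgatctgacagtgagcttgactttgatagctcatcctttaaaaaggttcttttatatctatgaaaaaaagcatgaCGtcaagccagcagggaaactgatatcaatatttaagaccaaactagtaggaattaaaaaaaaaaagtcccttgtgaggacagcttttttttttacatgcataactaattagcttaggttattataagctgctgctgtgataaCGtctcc
Cast: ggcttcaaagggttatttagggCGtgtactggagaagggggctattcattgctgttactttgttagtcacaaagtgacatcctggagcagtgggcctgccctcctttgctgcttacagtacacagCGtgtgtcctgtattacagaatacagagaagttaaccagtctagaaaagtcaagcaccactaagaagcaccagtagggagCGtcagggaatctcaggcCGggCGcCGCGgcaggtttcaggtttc
Ptges: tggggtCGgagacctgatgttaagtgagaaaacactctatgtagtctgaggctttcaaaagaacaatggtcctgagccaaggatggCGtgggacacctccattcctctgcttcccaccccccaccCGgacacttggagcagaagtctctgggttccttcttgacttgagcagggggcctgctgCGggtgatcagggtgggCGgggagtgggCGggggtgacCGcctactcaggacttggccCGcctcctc
Csk: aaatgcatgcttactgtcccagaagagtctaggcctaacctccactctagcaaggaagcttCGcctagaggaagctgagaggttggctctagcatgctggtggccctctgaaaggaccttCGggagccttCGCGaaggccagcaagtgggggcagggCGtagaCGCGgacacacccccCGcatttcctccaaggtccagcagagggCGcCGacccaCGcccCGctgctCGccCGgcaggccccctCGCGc
Arap1: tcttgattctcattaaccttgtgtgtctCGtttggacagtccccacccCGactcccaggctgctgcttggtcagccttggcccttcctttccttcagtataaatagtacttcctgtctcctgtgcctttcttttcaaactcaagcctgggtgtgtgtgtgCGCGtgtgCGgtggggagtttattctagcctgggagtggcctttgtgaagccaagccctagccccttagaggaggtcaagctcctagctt
The capitals crowd the Gnas (29 CpG), Ptch1 (41) and Runx1 (27) stretches and are sparse in those of Mitf (3) and Arap1 (5), with Ptges (8), Cast (7) and Csk (16) between. Only the Arap1 and Mitf stretches of these hold TATAAA, read on either strand.

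Internal regions were small and weak next to those at gene ends. Their median width was 728 bp, against 1603 bp at gene ends and 655 bp outside genes, and their median count over both libraries was 50 tags, against 384 and 41. They made up 27.7% of all regions and held 12.8% of the LPS tags and 13.2% of the PBS tags that lay in regions. Their spread was wide, from 5019 regions under 50 tags to 632 regions with 400 tags or more, which had a median width of 2574 bp and a median of 632 tags. At the strong end they looked like gene ends, where regions of 400 tags or more had a median of 644 tags over 2264 bp. There were 80 internal regions of 4 kb or more.

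Fewer than 1 in 2 internal regions were listed in both libraries. Both lists held 4179 of the internal regions, or 41.2% (exact 95% Clopper-Pearson interval 40.2 to 42.1%), against 60.6% of all regions. The LPS list alone held 2238 (22.0%, against 15.4% of all regions) and the PBS list alone held 3733 (36.8%, against 24% of all regions). This share is tied to the tag count by construction: every listed H3K4me3 peak has at least 17 tags, a library without a listed peak adds 0, and so regions of 1 list fall into the low classes. The share in both lists was 3.85% under 50 tags, 60.4% at 50 to 99 tags, 87.7% from 100 to under 200, 94.8% from 200 to under 400 and 98.6% at 400 or more. In the same classes it was 2.56, 58.5, 90.8, 98.99 and 99.5% at gene ends. Only the differences between internal regions and gene ends within a class are read here, and they were small, with internal regions lower from 100 tags upward. Missing from a list means only that no peak passed the caller's threshold there, and the mark may still be present.

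**Figure D1:**
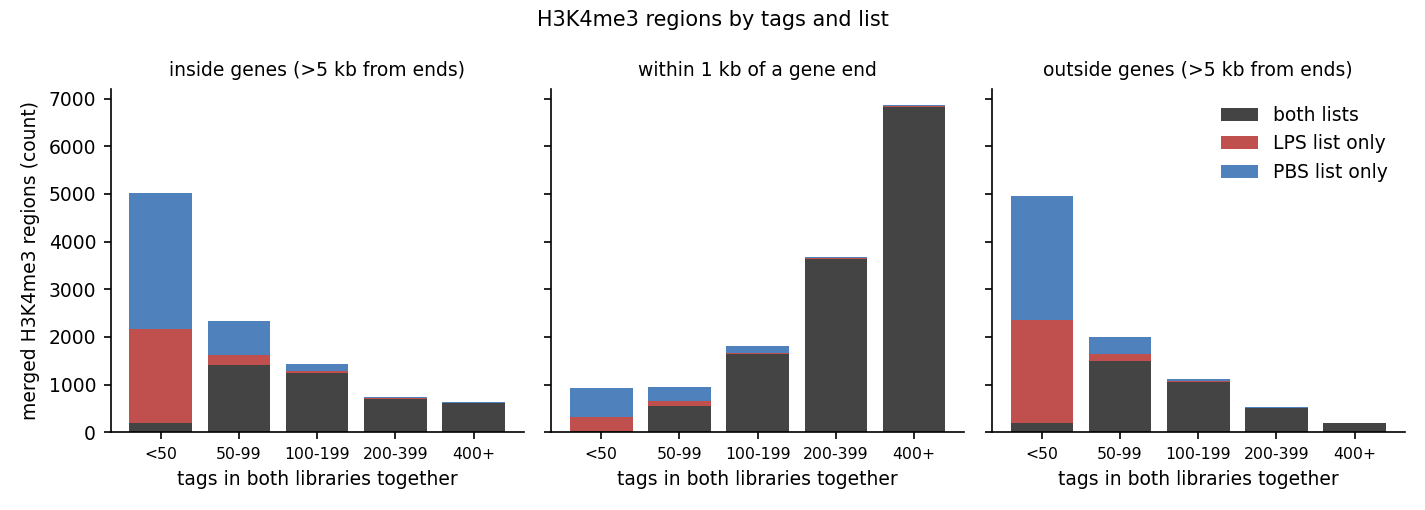
Number of merged H3K4me3 regions (y axis) by tags in both libraries together (x axis) for regions inside genes, within 1 kb of a gene end and outside genes, stacked by whether both lists, the LPS list only or the PBS list only held them. Inside genes the tallest bar is the 5019 regions under 50 tags, which a region of both lists can hardly fall into because each listed peak has at least 17 tags, while at gene ends the tallest is the 6857 regions of 400 tags or more.

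The 10150 internal regions lay in 4532 host genes, which is 34.3% of the 13198 protein-coding genes with at least 1 kb of sequence more than 5 kb from gene ends. All but 65 regions had a single host. Over the 853 Mb of eligible sequence there were 11.9 regions per Mb. Counting all genes with such sequence, hosts or not, the 9844 with H3K4me3 at a gene end carried 13.3 regions per Mb and the 3354 without it 8.07 per Mb. This order held in each of 5 length classes, for instance 18.5 against 14.0 per Mb in genes with 30 to 100 kb of eligible sequence and 5.43 against 3.41 in the longest. Hosts with 2 or more regions numbered 2141, those with 5 or more 506 and those with 10 or more 81.

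The hosts with most internal regions by number were mostly long genes. Arid1b, a subunit of the BAF chromatin remodelling complex, had 24 in 343 kb of eligible sequence, 7 of them in both lists, 3 in LPS only and 14 in PBS only. Arhgap26, a GTPase-activating protein, had 23, and Zfhx3, a homeodomain zinc finger factor, had 22. Foxp1, a forkhead factor of monocyte differentiation, had 21, with 12 in PBS only, and Lpp, a LIM protein of focal adhesions, also had 21, with 12 in LPS only. Pde4d, a cyclic AMP phosphodiesterase with many promoters, had 18. So had Zfp978 and Zfp993, of a cluster of near-identical zinc finger genes on chromosome 4, where tags may map to more than 1 copy. Of their regions 4 and 2 lay in another host as well. A dense host need not be a strong one. The median region of Lpp held 27 tags and that of Arid1b 41.5, whereas the 17 regions of Gse1, a coiled-coil protein found with histone deacetylases, had a median of 179 tags, and 13 of them were in both lists.

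Internal regions leaned towards the start of the host. Of 8050 regions with a single host whose strand the start table gave, 23.9% lay in the first of 5 equal stretches from its start, and the shares of the next 4 stretches of that length were 22.2, 19.3, 18.3 and 16.2%. The lean was steeper among regions that held a start of the host, from 29.5% in the first stretch to 7.51% in the last. Regions with no start went from 23.3% to 17.1%. The median distance was 38.2 kb from the start of the host and 22.8 kb from the nearest gene end, and the farthest lay 786 kb from any end, inside Dlg2, a scaffold of synapses. At the distance threshold the change was gradual. Regions inside genes at 4 to 5 kb from an end (434, not members) had a median of 87 tags and 52.1% of them were in both lists, and members at 5 to 6 kb (394) had a median of 79 tags and 49.7%.

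Few internal regions coincided with an annotated start, and those that did were among the strongest. The RefSeq start table used here covers protein-coding and long non-coding RNA (lncRNA) genes. It gave a start for 3591 of the 4532 hosts (79.2%), so 2052 internal regions, 321 of them on chromosome 18, could not be classed. Of the other 8098, 840 (10.4%) held a start. Without such a condition on their genes, 67.9% of regions at gene ends and 5.03% outside genes held one. A start of the host gene itself lay in 739 internal regions, only a start of an lncRNA gene in 101, and no start in 7258. The share with a start went from 1.73% under 50 tags through 4.56, 12.04 and 30.03% to 69.9% at 400 tags or more. Regions with a host start had a median of 355 tags over 1641 bp and were in both lists in 90.1% of cases. Those with an lncRNA start only had a median of 165 tags, and those with no start 45 tags over 686 bp, with 35.9% in both lists. No start in the table is not evidence that none is used in these cells. Exon and intron positions were not used here.

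Read from the starts, the mark followed CpG content. There were 2151 RefSeq starts of protein-coding genes inside gene bodies and more than 5 kb from gene ends, and 936 of them (43.5%, exact 95% interval 41.4 to 45.6%) lay in an H3K4me3 region. The share was 61.7% of the 17164 coding starts classed as at ends. With 0 to 4 CpG in the 300-base window at the start, 11.7% of the internal coding starts were marked, with 5 to 9 CpG 29.8%, with 10 to 19 CpG 73.4%, and with 20 or more 98.5% (401 of 407). Internal lncRNA starts were marked less often, at 238 of 2133 (11.2%), and in the same 4 classes at 3.87, 12.03, 22.2 and 95.9% (71 of 74). At 10 to 19 CpG the exact intervals of coding (68.5 to 77.9%) and lncRNA starts (16.7 to 28.5%) lay far apart, and at 20 or more (96.8 to 99.5% and 88.6 to 99.2%) they overlapped. Starts of 1 gene can share a region, so these starts are not independent of each other. In regions with a host start the peak summit lay a median of 166 bp after the start, and 83.3% of 641 summits lay downstream.

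**Figure D2:**
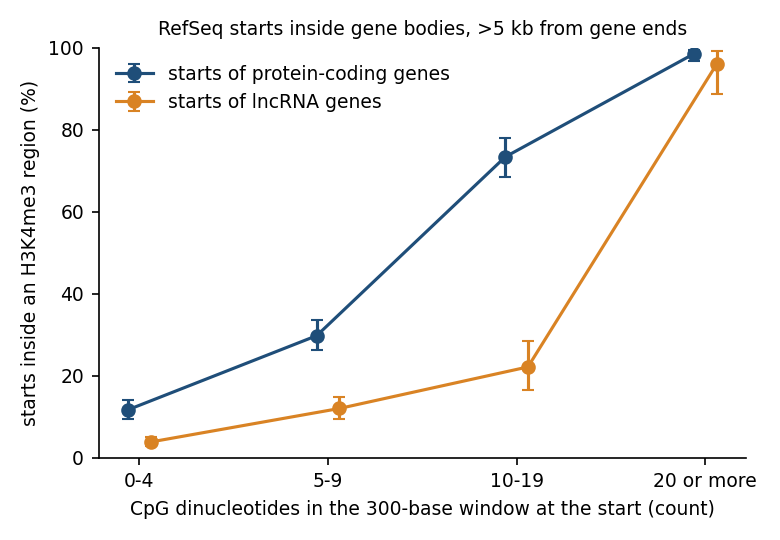
Share of RefSeq starts inside gene bodies that lay in an H3K4me3 region (y axis, %) by the number of CpG dinucleotides in the 300-base window at the start (x axis), for starts of protein-coding and of lncRNA genes, with exact 95% binomial intervals as bars. Coding starts climb from 11.7% to 98.5%, and lncRNA starts stay at or below 22.2% until the class of 20 or more CpG.

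Letters of the start windows differed in the same direction. Marked internal coding starts had a median of 17 CpG and unmarked ones 4. The GC box GGGCGG, searched on both strands like every motif here, was in 59.5% of the marked and 12.6% of the unmarked starts, against 35.9% of all 32619 starts. TATAAA was in 4.91% of the marked and 17.3% of the unmarked (13.7% of all). CCAAT was in 30.4% and 38.2% (37.6% of all). Motifs of macrophage and inflammatory factors differed little or were rare. The PU.1 form GAGGAAGT was in 3.31% and 2.39% (3.22% of all), the AP-1 form TGACTCA in 5.02% and 6.50% (5.22%) and the interferon response form, GAAA repeated after any 2 bases, in 1.92% and 3.87% (3.46%). The ETS form CCGGAAGT, which holds a CpG itself, was in 3.53% and 0.58% (3.91%). A match describes the letters and is not a binding site.

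The internal regions with most tags belonged to both lists and mostly held starts. In tags of LPS and PBS, the region of Tmem267, a membrane protein of unknown role, had 2415 and 2535 over 8.27 kb, the longest of all. It held no start, and its H3K9me3 is given further on. The region in Unc45b, a myosin chaperone of muscle, held the start of the lncRNA Unc45bos and had 1460 and 1542 tags. Gse1 had internal starts in regions of 1011 and 1354 tags and of 813 and 1042 tags. Gnas, which encodes the stimulatory G protein alpha subunit from an imprinted locus with several promoters, had 832 and 1049 tags over 3 listed starts with 27, 28 and 40 CpG. Ptch1, the Hedgehog receptor, known for alternative first exons, had 782 and 1069. Further regions of this size were at starts of Arhgef2, a microtubule-bound RhoA exchange factor (787 and 1203), of Nav2 (748 and 1068), of the retinoic acid receptor Rara (756 and 1035) and of Sbno2, a cofactor induced by interleukin 10 signalling (729 and 969), at the start of the lncRNA Gm7854 inside Cpeb2, a regulator of mRNA translation (946 and 1171), and, in a host with no start in the table, in the growth factor gene Pdgfb (917 and 1142). The PBS count was the higher of both in each of these 12, before scaling by library size.

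Among 61 genes listed here as known for more than 1 promoter, 54 held internal regions, 239 in all. The start table gave 57 internal starts in them, of which 27 were marked. Of starts with at least 10 CpG 18 of 22 were marked, and of starts with fewer 9 of 35. In Runx1, the runt factor of blood cell formation, the marked internal start (35 CpG) had 393 and 528 tags. In Runx3 (45 CpG) it had 357 and 439, and in Foxp1 (44 CpG) 380 and 556. Shank3 (40 CpG), a scaffold of synapses, had 364 and 441 tags. Igf2, the imprinted growth factor, had 162 and 214 tags at 1 of 3 internal starts, that with 24 CpG, and none at those with 14 and 7. Exceptions ran both ways. In Lmna, the lamin A and C gene, starts with 1 and 7 CpG were marked with 539 and 701 and with 174 and 400 tags. In Esrrg a start with 19 CpG was outside every region, as was 1 of Nrxn3 with 16. Mitf, the basic helix-loop-helix factor of osteoclasts, melanocytes and mast cells, had a start with 5 CpG in a region of only 24 and 30 tags, and the start with 8 CpG printed above was unmarked. Internal starts of Pparg (2 CpG), Ikzf1 (2 CpG) and Dlg2 (1 to 3 CpG) were unmarked too.

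Most of the chosen gene lists held more internal regions than genes of like length, with macrophage transcription factors highest. For each of 15 gene lists the count was set beside the number that the list's genes would hold at the density of all genes in the same length class and with the same presence or absence of H3K4me3 at an end. The 34 macrophage transcription factors with eligible sequence held 147 regions in 26 of them, 41.2 per Mb and 3.32 times that number. They included 14 in Runx1, 12 in Etv6, 9 in Runx2, 17 in Bach2, 8 in Mitf and 5 in Zeb2. Regulators of small GTPases held 300 (2.56 times), genes of phosphoinositide and calcium signalling 178 (2.57), of actin, adhesion and phagocytosis 204 (2.54), and macrophage surface and effector genes 58 (2.12). Toll-like receptor and NF-kB signalling held 61 (1.92), interferon genes 34 (1.80), chromatin regulators 147 (1.76), lipid handling 65 (1.45), T and B cell genes 31 (1.42), SUN and LINC complex genes 13 (1.32) and mesothelial and fibroblast genes 23 (1.29). Inflammatory mediators, mostly too short to have an interior, held 9 regions in 7 of 14 genes (2.84). Neuronal and synaptic genes were the single list under 1, with 173 regions, 3.53 per Mb and 0.673 times the number at the density of like genes. Their median eligible sequence was 526 kb. In the longest class, from 300 kb upward, it was 426 kb with a marked end and 512 kb without. Length was thus matched only roughly there, and its effect on the ratio was not tested. These ratios are descriptions of chosen lists that share some genes, with no test.

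**Figure D3:**
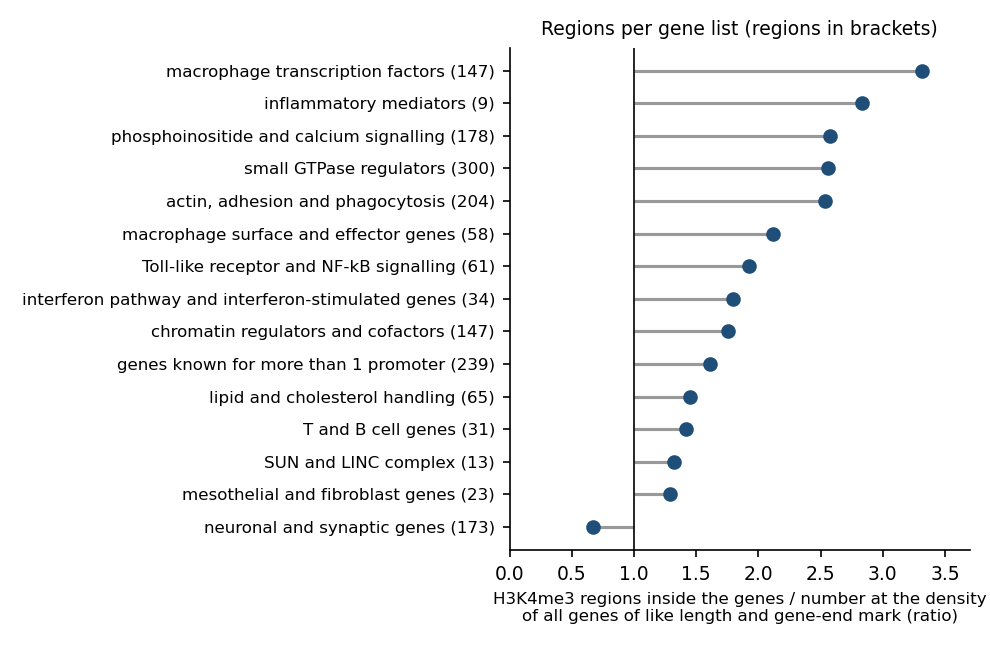
Number of internal H3K4me3 regions in each of 15 gene lists divided by the number at the density of all genes of like length and gene-end mark (x axis, ratio), with the count of regions in brackets and a vertical line at 1. Macrophage transcription factors lie highest at 3.32 and neuronal and synaptic genes lowest at 0.673.

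Members of these lists with most tags show how varied the marked interiors were. Runx2, better known from bone, had a region with no start and 669 and 924 tags (LPS and PBS). Spi1, which encodes PU.1, had 1 with 496 and 725 tags, 13.5 kb from the nearest protein-coding gene end, and the start table holds no entry for it. Gene ends are here the outer ends of all models. Whether the Spi1 region is the promoter of a shorter model could therefore not be read. Zeb2, a repressor needed for macrophage identity, had 422 and 737 tags at an internal start. Of the surface genes, Ptpre, a receptor tyrosine phosphatase, had 610 and 766 tags at an lncRNA start, and Axl, which binds apoptotic cells, 120 and 151. Of the signalling genes, Dusp16, a phosphatase of stress kinases, had 246 and 364 at a start, Pik3ap1, an adaptor from Toll-like receptors to PI3 kinase, 254 and 305, and Peli2, a ubiquitin ligase of the same pathway, 147 and 189. Among actin genes, Pxn, the focal adhesion adaptor paxillin, had regions of 630 and 797 and of 383 and 384 tags, and Macf1, a linker of actin and microtubules, 631 and 782. Agap1 (617 and 834), Arap1 (453 and 639) and Asap1 (467 and 621), GTPase-activating proteins for Arf, each had a strong region. Those of Agap1 and Arap1 held no listed start, and Asap1 is outside the start table. Of the chromatin genes, the H3K27 demethylase gene Kdm6b had 503 and 777 tags, Chd9 502 and 671, and the deacetylase genes Hdac5 and Hdac7 512 and 628 and 503 and 633. Of the lipid genes, Acaca (304 and 390), Srebf1 (281 and 379) and Ppard (225 and 360) led. Dgkz, a diacylglycerol kinase, had starts in regions of 613 and 814 and of 482 and 677 tags, the calcium sensor Stim1 373 and 528, and Nfatc2 281 and 356.

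Lists of other cell types had strong members as well. Satb1 (394 and 516) and Gata3 (289 and 409), transcription factors of T cells, had marked internal starts with 13 and 22 CpG, the T cell receptor chain gene Cd247 had 218 and 293 tags, and Pax5, the B cell factor, 170 and 242. In Nfia, listed for fibroblasts, regions had 448 and 591 and 136 and 173 tags, and in Gata4 120 and 168 and 119 and 128. Of the neuronal genes the calcium channels Cacna1a and Cacna1c had 298 and 458 and 287 and 361. Which cells of the dish carried these regions was not tested. Among the genes of the series' title theme, Syne1, a giant nesprin of the nuclear envelope, had 6 internal regions, the strongest with 97 and 153 tags and the next with 39 and 52. Syne3 had an LPS-only region of 129 tags and a PBS-only region of 83. No internal start of the SUN and LINC list (0 of 5) was marked.

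The LPS library had fewer tags than the PBS library in internal regions, by less than at gene ends. For the 4179 shared regions, LPS over PBS tags (log2, each per filtered tag) had a median of -0.19 (rank interval -0.21 to -0.18, the spread among regions only). It was -0.35 at gene ends, -0.15 outside genes and -0.31 over all shared regions. The lower share of LPS tags in all peaks, given above, moves with this ratio, and peak lengths do too. Per kb covered by peaks in each library the internal median was -0.06. Centred on the median of all shared regions it was 0.11. Whether the internal median is above or below 0 therefore depends on the scaling. Its order against gene ends held per covered kb (-0.21 at gene ends). Centring moves every region by the same amount and could not change that order.

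Regions with and without a host start differed at equal tags. From 100 to under 200 tags the median was -0.40 (-0.52 to -0.28) for internal regions with a host start and -0.40 (-0.43 to -0.38) at gene ends, against -0.17 (-0.21 to -0.12) for internal regions with no start and -0.21 (-0.24 to -0.17) outside genes. From 200 to under 400 tags the same 4 values were -0.39, -0.40, -0.18 and -0.29. At 400 tags or more they drew together, at -0.35, -0.34, -0.28 and -0.28. Regions with a host start thus lay with gene ends, and regions with no start lay nearer 0. Rank intervals with and without a host start were apart in each of these classes. At 400 tags or more the gap was narrow, from -0.319 to -0.316. Only regions of both lists have a ratio. From 100 to under 200 tags they were 96.0% of regions with a host start and 86.4% with no start. In that class the PBS list alone held 4.03% and 10.6%, and the LPS list alone 0 and 3.02%. How leaving these out moved the medians was not tested. Per covered kb, pooled over all tag counts, the medians were -0.19 with a host start, -0.21 at gene ends and -0.03 with no start. At 400 tags or more these per-kb medians were close, at -0.19, -0.21 and -0.17. Regions under 50 tags had a median of 0.02, but to be in both lists so weak a region had to pass the threshold in each library, which holds its ratio near 0. The ratio of an internal region said little about that of its host's end. Over 1866 regions in 1298 hosts, Pearson's r across regions was 0.05 and Spearman's rank coefficient 0.07, as a description over regions that share libraries and sometimes hosts.

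**Figure D4:**
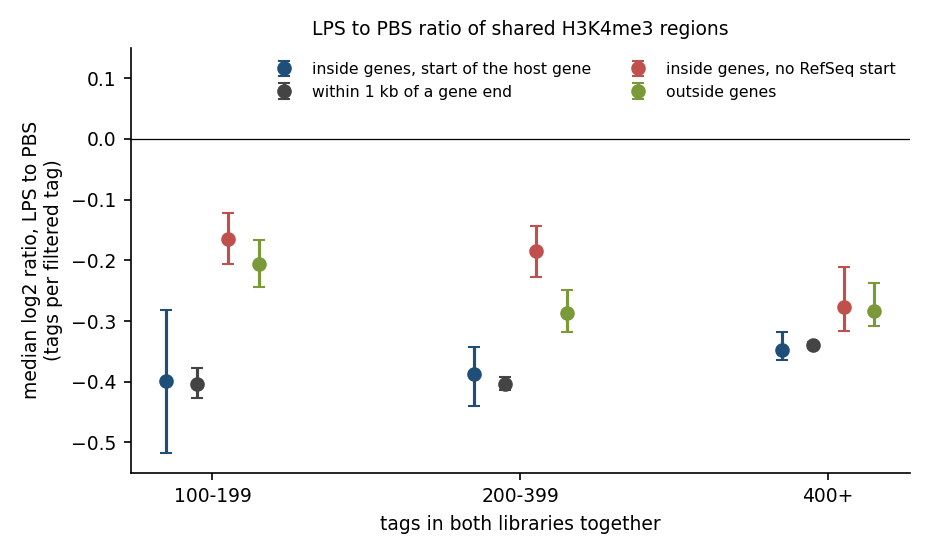
Median log2 ratio of LPS to PBS H3K4me3 tags per filtered tag (y axis) by tags in both libraries together (x axis), with 95% rank intervals over regions as bars, for internal regions with a host start, regions within 1 kb of a gene end, internal regions with no RefSeq start and regions outside genes. Internal starts and gene ends lie at about -0.40 from 100 to under 200 tags, and internal regions with no start at -0.17.

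Differences of 2-fold or more were few and ran mostly towards PBS. The 2577 internal regions of both lists that reached 100 tags included 31 (1.20%) with a ratio of 2 or more towards LPS, against 0.559% of all such regions, and 124 (4.81%) with that ratio towards PBS, against 3.19%. Centred on the median of all shared regions the counts were 82 (background 1.5%) and 35 (background 0.867%), so the lean towards PBS turned. Called length moved with every one of them. In all 31 the LPS peaks covered more length, and in all 124 the PBS peaks did, with a median length ratio of 2.12 and 2.06. Per covered kb no internal region reached 2-fold either way, against 0.00559% and 0.0671% of the 17883 shared regions of all kinds with 100 tags. In these members the mark was thus called over a longer or shorter stretch. A density per covered kb counts each library over its own peaks only, so density over the same stretch was not measured. A host start lay in 620 of the 2577, in 1 of the 31 and in 25 of the 124, so starts were about as common among the regions higher in PBS as among all of them. Hosts outside the start table held 7 of the 31 and 23 of the 124.

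**Figure D5:**
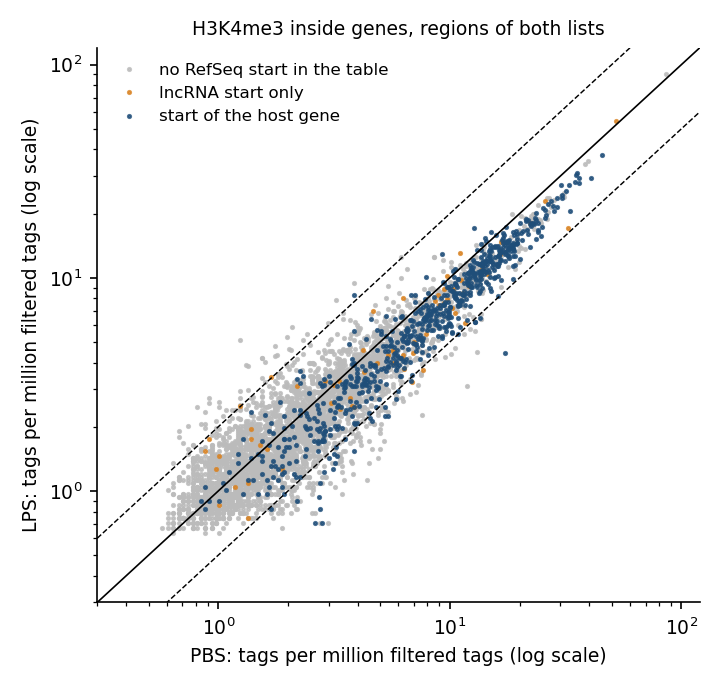
H3K4me3 tags per 1e6 filtered tags in LPS (y axis, log scale) and PBS (x axis, log scale) for each internal region of both lists, coloured by the RefSeq start it holds; the solid line marks equal values and the dashed lines a 2-fold difference. Regions with a host start run close below the solid line, and most points beyond the dashed lines have no start listed (grey, which also covers hosts that the start table does not hold).

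Of the 10 highest ratios, 8 were in regions with no start and 2, in Smyd3 and Ahr, in hosts outside the start table. In Hivep1, a zinc finger factor that binds kB-like motifs, there were 136 tags in 2.50 kb of LPS peak and 37 in 0.67 kb of PBS peak, a log2 ratio of 2.03 (exact 95% interval 1.49 to 2.59, counting error only). In Smyd3, a SET-domain methyltransferase gene, the counts were 73 and 27 (1.59), and in Ahr, the aryl hydrocarbon receptor, 104 and 39 (1.57, and 0.60 per covered kb). Next came Ppm1h, a protein phosphatase (103 and 40, 1.51), Sh3bp5, a Btk-binding protein (158 and 62), the polarity gene Llgl1 (128 and 52, 1.45), Cttnbp2nl (113 and 46, 1.45, and 0.68 per covered kb), the glycolytic phosphoglucose isomerase gene Gpi1 (113 and 46, 1.45), the receptor gene Notch1 (141 and 59, 1.41) and the Rab GTPase regulator Tbc1d2b (70 and 30, 1.37). Ahr and Cttnbp2nl are the members of this group whose difference per covered kb stayed above 0.5, and in Sh3bp5, Notch1 and Tbc1d2b it was below 0. Other regions at least 2-fold higher in LPS include those in Cflar, the caspase inhibitor cFLIP (335 and 182, 1.03), Arl15 (252 and 115, 1.28), Pola2 (211 and 96, 1.29), the inhibitory Fc receptor gene Fcgr2b (91 and 46, 1.13) and Ciita, the class II transactivator (68 and 37, 1.03). They are named from the full set after their values were seen.

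Ptges, the inducible prostaglandin E synthase, held the only listed host start among the regions at least 2-fold higher in LPS, of which 7 could not be classed. Centred on the median of all shared regions, 3 regions with a host start passed. Its region had 222 tags in LPS and 114 in PBS, a log2 ratio of 1.11 (0.78 to 1.45) and 0.42 per covered kb, and its printed start has 10 CpG in the 300-base window. Of the other mediators, Mmp9, a gelatinase, had 335 and 254 tags (0.55, and 0.01 per covered kb), Hif1a, the hypoxia factor, 311 and 481 at a start (-0.48), and Nos2, the inducible nitric oxide synthase, an LPS-only region of 72 tags 23.5 kb from the nearest PBS peak. Of the mediators' regions of both lists, Ptges alone passed 2-fold.

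The 10 lowest ratios were between -2.06 and -1.74. Card6 had 19 tags in LPS and 88 in PBS (-2.06, interval -2.86 to -1.33). Cast, the calpain inhibitor calpastatin, whose start is printed above, had 19 and 83 (-1.98, and -0.56 per covered kb), and Mtus2, a microtubule-associated protein, 22 and 82 at a start (-1.75, and -0.70). In Zmynd8, a reader of acetylated and methylated histones, the region held a start and had 119 LPS tags in 1.09 kb and 516 PBS tags in 4.71 kb (-1.97), but 0.15 per covered kb. The others were Ap3b1, a subunit of a lysosomal sorting adaptor (30 and 130, -1.97), Rbbp8, a DNA repair factor (19 and 82, -1.96), Fam20c, a kinase of secreted proteins (83 and 352, -1.93), Cmtm4 (26 and 102, -1.82), the lysine methyltransferase gene Setd7 (38 and 145, -1.78) and the sorting receptor gene Sort1 (36 and 133, -1.74). Per covered kb Ap3b1, Fam20c and Setd7 were, like Zmynd8, above 0. Among the macrophage transcription factors 5 regions were at least 2-fold higher in PBS and none in LPS, those in Elf4 (42 and 148, -1.67), Etv6 (26 and 75, -1.38), Meis1 (29 and 83, -1.37), Foxp1 (50 and 119, -1.10) and Bach2 (87 and 204, -1.08). These 5 are 13.9% of the list's 36 regions with 100 tags, against 4.81% of all internal regions and 3.19% of all regions. Of the 5, 3 remained when centred on the median of all shared regions. Other lists varied, with 12.5% of 8 regions in T and B cell genes and 10% of 70 in genes known for more than 1 promoter. It was 7.02% of 57 in neuronal genes, 1.89% of 53 in chromatin regulators and 0 of 14 in Toll-like receptor and NF-kB genes. Differences between lists were not tested. Per covered kb the ratios of the 5 named regions were -0.38, -0.33, -0.45, -0.19 and 0.00.

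In the 13 lists with at least 8 regions of both lists, the medians lay below 0 on the scale of filtered tags, as did that of all internal regions. Examples are -0.26 in macrophage transcription factors (50 regions of both lists), -0.31 in genes known for more than 1 promoter (102), -0.12 in actin and adhesion genes (77), -0.17 in GTPase regulators (119), -0.22 in chromatin regulators (73), -0.18 in phosphoinositide and calcium genes (81), -0.25 in neuronal genes (83), -0.11 in Toll-like receptor and NF-kB genes (23) and -0.11 in surface and effector genes (21). Mediators and SUN and LINC genes, with 3 and 2 shared regions, were not summarised. Single regions with more of the difference were in Lrp1, the scavenger and lipoprotein receptor, with 154 and 363 tags (-1.09) at 1 position and 206 and 169 (0.44) at another, in Nfkbiz, the inducible NF-kB cofactor (242 and 492, -0.87), in Zeb2 (-0.65) and in Adar, the RNA-editing enzyme (111 and 220, -0.84). Per covered kb these were -0.16, 0.08, -0.11, 0.23 and -0.31. Parp11 had 104 and 169 tags at a start (-0.55) and 64 and 46 elsewhere (0.63), and Irf2 80 and 103 (-0.21).

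Some strong internal regions were listed in a single library. In LPS only, Csk, the kinase that restrains Src family kinases, had 628 tags over 4.31 kb at the start printed above, and the nearest PBS peak lay 4.26 kb away. The region shared by Sp110 and Sp140, nuclear body genes induced by interferon, had 619 tags over 5.23 kb, with the nearest PBS peak at 10.4 kb, in a family of near-identical copies. It also met H3K9me3 of the LPS list (258 tags) and none of the PBS list. Rara (316 tags, no start), Pip5k1c (299), Zmiz1 (269) and Tnip1, an NF-kB inhibitor (258), followed. For Zmiz1 and Tnip1 a PBS peak lay only 1.501 and 1.397 kb away. In PBS only, the cytolinker gene Plec had 1100 tags over 7.01 kb, Arhgap23 958 over 7.18 kb, Akna 894 over 6.85 kb at a start, Arap1 648 over 5.68 kb at the TATAAA-bearing start printed above, and the non-muscle myosin gene Myh9 447. The nearest LPS peak was 0.81 kb away for Arap1, 2.74 kb for Akna and 28.4 kb for Myh9. Regions of 400 tags or more in 1 list were rare, at 0.32% in LPS only and 1.11% in PBS only of the internal regions of that size, and 0.19 and 0.32% at gene ends. Tag counts below a library's threshold are not listed, so the size of these differences has no value here.

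H3K9me3, the mark of heterochromatin, met internal regions less often than it met all regions, an order that turned against gene ends in 4 of 5 tag classes. A peak of the H3K9me3 LPS list overlapped 10.3% of internal regions (9.76 to 11.0%), against 15.9% of all regions, and a peak of the PBS list 8.59% (8.05 to 9.15%), against 13%. At gene ends the shares were 20.5 and 16.0%, and outside genes 16.3 and 14.4%. Of the filtered H3K9me3 tags, only 1.61% (LPS) and 1.67% (PBS) lay in listed peaks. Without a control library, an overlap cannot be told apart from a place that collects tags whatever the antibody. Strong regions met an H3K9me3 peak more often, and gene ends hold most of the strong regions. Of internal regions with 400 tags or more, 28.3% (LPS) and 22.9% (PBS) met an H3K9me3 peak, against 33.7 and 27.1% of gene ends of that size. In the 4 lower classes the values were 8.17, 10.6, 9.21 and 11.1% of internal regions and 6.72, 7.29, 6.93 and 9.65% of gene ends, for a peak of the LPS list. Either list met 1305 internal regions (12.9%), against 20.1% of all regions. Farther than 100 kb from an end, 18.5% of 905 regions had either, and in hosts of the neuronal list 20.2% of 173, above the share of all internal regions and close to that of all regions.

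Of the strong regions with both marks named next, Tmem267 and Unc45b had many H3K9me3 tags and the others had few. They are part of 234 internal regions of 400 H3K4me3 tags or more that met an H3K9me3 peak of either list. Whether that whole set divides in this way was not tested. Tmem267 had 3043 and 3070 H3K9me3 tags (LPS and PBS), more than its H3K4me3 tags, and Unc45b 450 and 346. Cpeb2 had 43 and 75, Pdgfb 67 and 47, Gnas 57 and 26, Arhgef2 35 and 0, Ptch1 14 and 0 and the Ras-responsive factor Rreb1, with 680 and 944 H3K4me3 tags at a start, 26 and 0. The lowest tag count of a listed H3K9me3 peak was 12 in LPS and 11 in PBS, so the 14 of Ptch1 lay close to that floor. A value of 0 means that no peak was listed. Regions with fewer H3K4me3 tags than those named so far could have many H3K9me3 tags as well. In the region of Cttnbp2nl, among those higher in LPS, there were 213 and 171 H3K9me3 tags. The LPS-only region of Sp110 and Sp140, whose 619 H3K4me3 tags put it in the class of 400 or more, had 258 and 0. Without a control library, tags of both marks at Tmem267, Unc45b and Sp110 cannot be told apart from a locus that collects tags whatever the antibody.

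Of the miRNA hairpins in the RefSeq table, 14 entries lay inside internal regions. Mature sequences of 4 of them are shown for their values or their shared seed, with the seed (bases 2 to 8) in capitals.
miR-148a-3p: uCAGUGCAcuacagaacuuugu
miR-149-5p: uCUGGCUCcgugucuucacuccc
miR-199a-3p: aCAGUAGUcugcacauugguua
miR-199b-3p: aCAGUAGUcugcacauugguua
Mir149, inside the proteoglycan gene Gpc1, lay in a region with 123 tags in LPS and 61 in PBS (1.16, and 0.10 per covered kb). Mir148a lay in a region of Gm38821 with 256 and 332. Mir199b, inside the dynamin gene Dnm1, had 74 and 96, and Mir199a-2, inside Dnm3, an LPS-only region of 35 tags. Their printed 3p arms share the seed CAGUAGU and every other base. Mir7687 lay in the Gse1 region of 1011 and 1354 tags and Mir1904 in a Pde4d region of 237 and 346. Mir3075 (Zmiz1) was in a PBS-only region of 80 tags and Mir761 in an LPS-only region of 26. Whether any of these miRNAs was transcribed was not measured.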

How the data were processed

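H3K4me3 and H3K9me3 were measured by chromatin immunoprecipitation and sequencing in 4 libraries, 1 per mark and treatment. Tools listed in the submitters' processing notes were DiffBind, MACS 1.4.2, CASAVA 1.4 and Bowtie 0.12.8, with mm10 as the build. Peaks of each library were called alone and without a control library, per the file headers, at a p-value threshold of 1e-05, a band width of 300 bp and a local window of 10000 bp, with at most 1 tag per position. Each table deposited by the authors gives a peak's position, its tag count, a score (minus 10 times the log10 of the p-value, a transformed −log10 value) and a fold enrichment ratio. The score served only as a filter and the fold was not used to compare libraries. The tables list no position below the threshold.

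From these files, peaks were merged and classed against a RefSeq table of GRCm38.p6 (21631 protein-coding genes, outer ends of all models). Start sites and their sequences came from a RefSeq table of the same build (32619 starts). Ratios are log2 of LPS over PBS tags per filtered tag, counted as 2-fold where both libraries together had 100 tags. Each 95% Clopper-Pearson interval is exact and describes counting error alone. No test between treatments was possible. Regions were named by rule: the 12 with most tags, the 10 highest and 10 lowest ratios, the 6 strongest of each single list, the 5 longest, the 8 richest hosts, up to 8 with both marks, and up to 4 per gene list. Some regions that the rule names are not reported here. Other regions are named after their values were seen. The regions and the 15 lists were chosen with earlier results of these data known. Merging was checked against bedtools 2.31.1 on the listed peaks, and the classes against a plain loop over a sample of the merged regions. The ratios were tested on simulated tag counts. Python 3.11.15, pandas 2.3.3 and scipy 1.17.1 were used.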

Additional observations from a re-analysis of the deposited data

How the results depend on the processing

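Of 48 recomputed values of the main results, 29 stayed near the reported one (a count within 1.5 times of it, a median within its rank interval), 18 moved further and 1 reversed. Distances of 2 or 10 kb from gene ends, the ends of every gene in the table, a stricter overlap, lists of equal length and H3K9me3 peaks within 1 kb kept all within these bounds, although at 10 kb the count of regions fell to 8122 and those higher in LPS and PBS to 23 and 94. With only peaks of score 100 or more there were 3390 internal regions, 1764 in both lists and 1626 in 1 list, 610 with H3K9me3, a median log2 ratio of -0.26, and 8 and 48 regions at least 2-fold higher in LPS and in PBS. Per tag before the caller's filter the median was -0.091 and 49 regions were higher in LPS. Per covered kb the median was -0.060, with 0 and 0 regions past 2-fold. Centred on all shared regions the median reversed to 0.11, with 82 and 35 regions. A minimum of 50 tags gave 53 regions higher in LPS, and a minimum of 200 tags a median of -0.30 with 9 and 46, from fewer regions. Of the named ratios, 7 reversed per covered kb, to -0.050 in Sh3bp5, -0.39 in Notch1, -0.033 in Tbc1d2b, 0.15 in Zmynd8, 0.11 in Ap3b1, 0.0089 in Fam20c and 0.14 in Setd7. Unequal called length enters these by construction, and otherwise the cause was not tested. No paired analysis was possible because each group held 1 library. A region under 50 tags rests on few tags, and its presence in a single list says little about the treatment.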
